A study of Homo sapiens with 6 samples.

Results

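The mRNAs described here encode the 8 subunits of the cytosolic chaperonin (TRiC or CCT), namely TCP1, CCT2, CCT3, CCT4, CCT5, CCT6A, CCT7 and CCT8. They were chosen by gene symbol among 8204 genes with at least 1 called site in a series that asked which RNAs are bound by AEG-1, an endoplasmic reticulum (ER) membrane protein encoded by MTDH. All 8 had a site in at least 1 library, each on a single RefSeq transcript. All libraries came from AEG-1-14, a line made from HepG3 cells, which the labels give as hepatoblastoma, in which AEG1 carrying a C-terminal HA tag is stably expressed. What was measured is therefore RNA attached to a tagged protein that the cells carry beside their own, and the labels do not say whether the line is 1 clone.

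The groups were 1 PAR-CLIP AEG1 library, irradiated at 365 nm, against 1 PAR-CLIP negative control without UV, and 2 HITS-CLIP AEG1 libraries, irradiated at 254 nm, against 2 HITS-CLIP negative controls without UV. The UV light bonds RNA to protein, after which the tagged protein was precipitated with an anti-HA antibody and its RNA fragments sequenced. In PAR-CLIP a photoreactive nucleoside is commonly fed to the cells; none is named in the labels. The controls carried the same tagged protein and went through the same precipitation. Whether the HITS-CLIP replicates were grown separately is not stated, and their spread may be a technical one.

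The chaperonin is a barrel of stacked rings in which each of the 8 related subunits has a fixed place. It closes over unfolded proteins in an ATP-driven cycle and is best known for folding actin and tubulin, which reach it partly through the co-chaperone prefoldin. Its subunits are soluble proteins of the cytosol without a signal peptide, and so lack the usual mark for synthesis at the ER membrane, where AEG-1 sits. Where their mRNAs were translated was not measured here. In yeast, the subunits corresponding to TCP1, CCT2, CCT4 and CCT5 form the side of the ring that binds ATP more tightly, and those corresponding to CCT3, CCT6A, CCT7 and CCT8 the other side.

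The site lists were of very different size. PAR-CLIP AEG1 held 60085 sites and its control 121, the HITS-CLIP AEG1 replicates held 6378 and 5651 sites, and the HITS-CLIP controls 60 and 90. No read counts were given, so the read depth is unknown. Of 8 marker mRNAs of the hepatocyte lineage, among them ALB, AFP and APOB, 8 had sites in PAR-CLIP AEG1 and 8 in both HITS-CLIP AEG1 replicates. Some of them had sites in the controls too. ALB had 3 sites in PAR-CLIP AEG1 against 13 in its control, and 5 and 10 in HITS-CLIP AEG1 against 11 and 9 in the controls. SERPINA1 had 10 against 4 in PAR-CLIP, and 6 and 5 against 1 and 2 in HITS-CLIP, and APOB had 1 site in the PAR-CLIP control against 23 in PAR-CLIP AEG1. Of 8 markers of blood, endothelial, connective tissue and squamous cells, 3 (CD14, LYZ and KRT5) had PAR-CLIP sites and 1 (LYZ) had sites in both HITS-CLIP replicates.

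Every chaperonin subunit mRNA carried sites in PAR-CLIP AEG1, whereas HITS-CLIP AEG1 recovered few sites on some subunits and none on others. The 8 mRNAs held 72 PAR-CLIP AEG1 sites in all, and 10 and 2 sites in the HITS-CLIP AEG1 replicates. None of the 3 controls had a site on any of them. CCT3 and CCT6A were the 2 subunits with sites in both HITS-CLIP replicates, CCT4, CCT5 and CCT7 had them in replicate 1 alone, and TCP1, CCT2 and CCT8 had none. The count of 2 was 0 among sites above the median score of their library, and 0 when at least 2 sites per gene and library were required.

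Across the 20056 protein-coding genes of the RefSeq table, 39.8% had a PAR-CLIP AEG1 site, 6.57% a site in both HITS-CLIP AEG1 replicates and 0.718% a site in any control. The chaperonin counts on the same measures were 8 of 8, 2 of 8 and 0 of 8. Many protein-coding genes are not transcribed in a given line, and the amount of each mRNA was not measured here, so a low amount of mRNA and a low contact with AEG1 cannot be told apart. Among the 7975 protein-coding genes with a PAR-CLIP site, 15.6% had sites in both HITS-CLIP replicates. Among the 1913 with 7 to 12 PAR-CLIP sites, the range of the subunits, 19.8% had sites in both HITS-CLIP replicates and 31.7% in at least 1, where the subunits stood at 2 of 8 and 5 of 8. By single replicate, 5 of 8 subunits and 9.26% of protein-coding genes had a site in replicate 1, and 2 of 8 subunits and 8.47% in replicate 2.

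**Figure D1:**
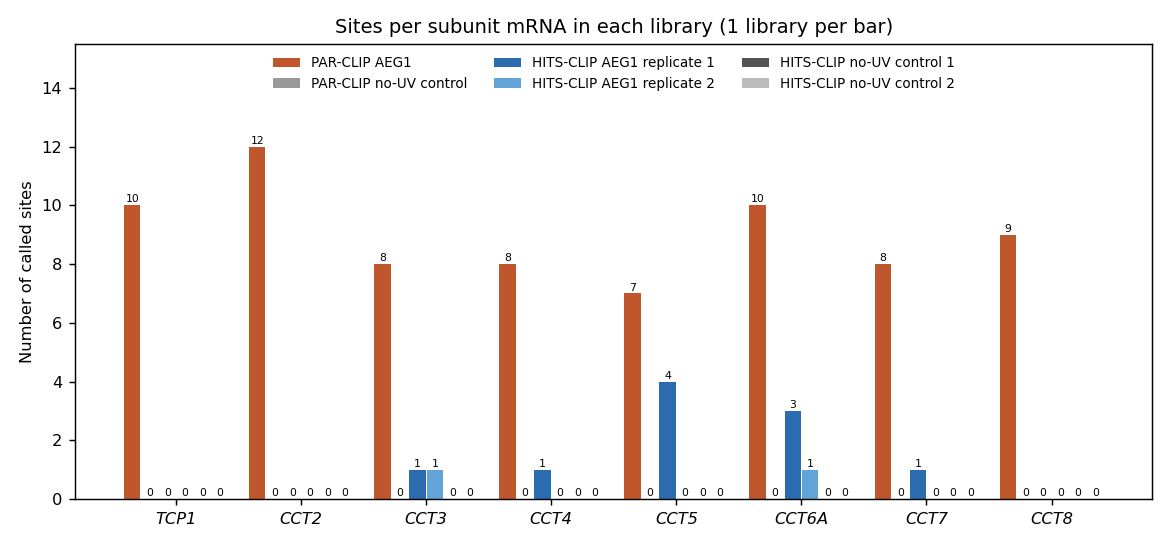
Number of called sites (vertical axis) on each chaperonin subunit mRNA, with 1 bar for each of the 6 libraries and the number above it. PAR-CLIP AEG1 bars run from 7 (CCT5) to 12 (CCT2), the HITS-CLIP AEG1 bars from 0 to 4, and all control bars are at 0.

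In the HITS-CLIP comparison, the 8 mRNAs together held 10 and 2 sites in the AEG1 libraries, against 0 and 0 in the controls. The means were 6 ± 5.66 and 0 ± 0 sites (SD, n = 2 each), and an exact permutation test, two-sided, gave p = 0.333, the smallest that 2 against 2 libraries allow. Replicate 1 decided the size of this difference: without replicate 1 of each group it was 2 sites and without replicate 2 it was 10. In covered sequence, the AEG1 libraries held 625 and 85 nt, against 0 and 0 nt in the controls. The PAR-CLIP comparison stood at 72 against 0 sites, from 1 library on each side and so without a replicate check.

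The first group in order of role is the side of the ring that binds ATP tightly in yeast. TCP1, the founding member of the family, had 10 PAR-CLIP AEG1 sites and 0 sites in each HITS-CLIP AEG1 replicate. CCT2, which has also been described as a receptor that delivers protein aggregates to autophagy, had 12 PAR-CLIP sites, the most of the 8, and likewise 0 and 0 HITS-CLIP sites. The subunit with most PAR-CLIP sites was thus among those that HITS-CLIP did not recover. By covered length CCT2 did not stand out, with 1590 nt against a median of 1671.5 nt over the 8 mRNAs. Its sites were at most 280 nt wide.

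CCT4, a subunit of which a variant causes a sensory neuropathy in rats, had 8 PAR-CLIP sites and 1 and 0 HITS-CLIP sites in the AEG1 replicates. CCT5, in which inherited variants cause a sensory neuropathy with spastic paraplegia, had 7 PAR-CLIP sites and 4 and 0 HITS-CLIP sites. It had the fewest PAR-CLIP sites and the most HITS-CLIP sites in replicate 1. By covered length there was no such contrast. CCT5 had 1872 nt covered in PAR-CLIP, above the median of 1671.5 nt over the 8 mRNAs. In HITS-CLIP replicate 1 it had 278 nt, the highest of the 8. None of these 4 subunits had a site in HITS-CLIP replicate 2.

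On the other side of the ring, CCT3 had 8 PAR-CLIP sites and 1 and 1 HITS-CLIP sites. CCT6A, which has a testis-expressed paralog, CCT6B, had 10 PAR-CLIP sites and 3 and 1 HITS-CLIP sites. CCT7 had 8 PAR-CLIP sites and 1 and 0 HITS-CLIP sites, and CCT8 had 9 PAR-CLIP sites and 0 and 0 HITS-CLIP sites. CCT3 and CCT6A were the subunits with a site in HITS-CLIP replicate 2, and each had a single site there. The split between the sides of the ring was not tested, since each side has 4 subunits and the replicates disagree.

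The counts may include fragments of pseudogenes. The RefSeq table names 5 pseudogenes of CCT6A, 3 of TCP1, 2 each of CCT4, CCT5 and CCT7, 1 each of CCT3 and CCT8 and none of CCT2. How the authors treated fragments that match several places was not stated, so the sites of the subunits with pseudogenes are uncertain in this respect. CCT2, with no such copy named, had the most PAR-CLIP sites but a covered length below the median of the subunits. A link between copies and sites was not tested. Pseudogenes were counted by symbol, so any that are named otherwise are not included.

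On each subunit, PAR-CLIP AEG1 sites covered most of the sequence between the first and the last covered base; full transcript lengths were not used. Positions are counted in nt from the first base of the transcript in the files; coding sequence boundaries were not analysed here. The covered length was lowest on CCT7 (1454 nt) and highest on CCT6A (2133 nt), with a median of 1671.5 nt over the 8 mRNAs. Between the first and the last covered base, sites filled from 76.6% (CCT4) to 97.0% (CCT5) of the sequence, with a median of 90.4%. On TCP1 they filled 93.5% of nt 79 to 2072, on CCT3 95.6% of nt 143 to 1946 and on CCT8 94.1% of nt 266 to 1985. On CCT2 they filled 87.3% of nt 29 to 1850, on CCT7 85.3% of nt 145 to 1848 and on CCT6A 83.2% of nt 101 to 2663.

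**Figure D2:**
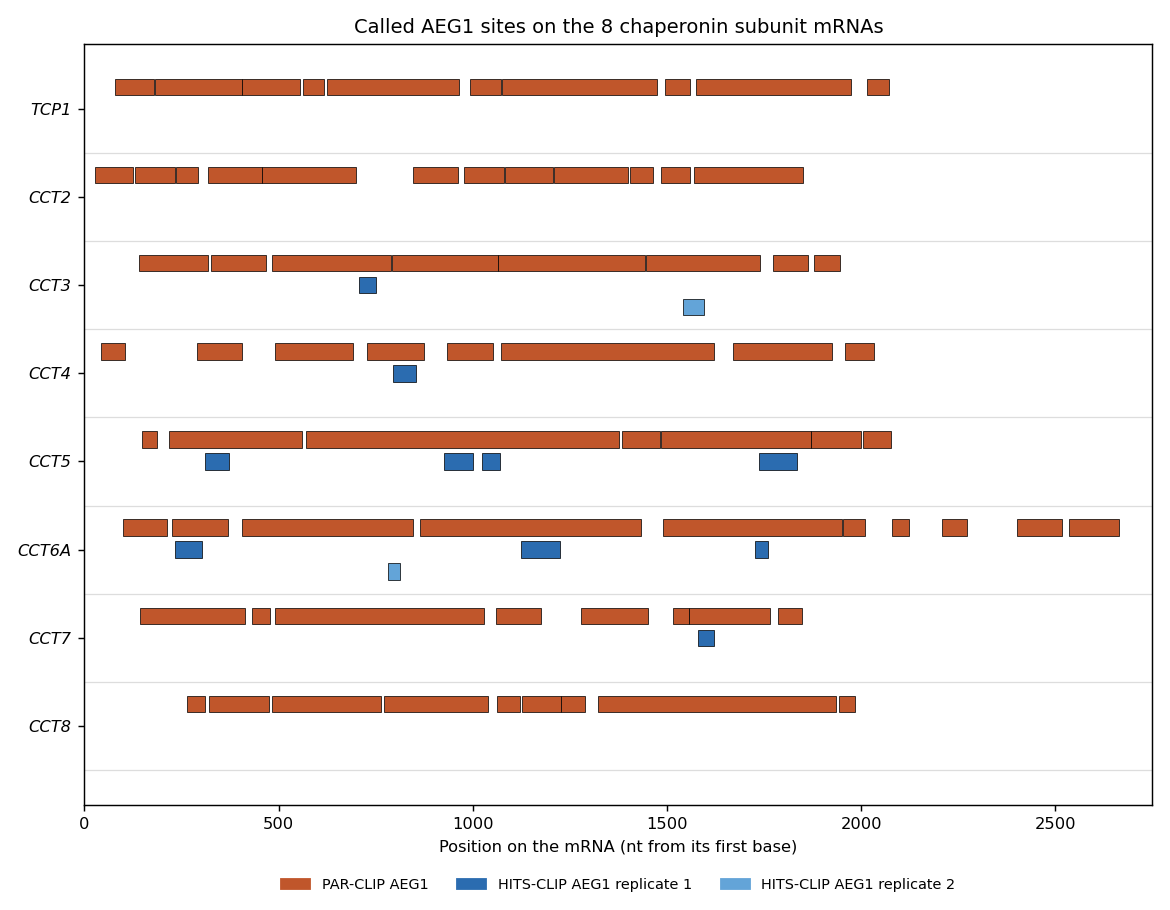
Called AEG1 sites (boxes, to scale) along the 8 subunit mRNAs, with the distance from the first base of the transcript in nt on the horizontal axis and, for each mRNA, a row for PAR-CLIP AEG1 above rows for HITS-CLIP AEG1 replicates 1 and 2. PAR-CLIP boxes cover 76.6% to 97.0% of the sequence between their ends, and each of the 12 HITS-CLIP boxes lies under a PAR-CLIP box.

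This cover was dense for the number of sites. Among the 1922 genes of the files with 7 to 12 PAR-CLIP sites, coding by the RefSeq table or not, the median share of the span that was covered was 38.6%, with quartiles of 22.3% and 62.0%, and all 8 subunits lay above the upper quartile. A share of at least 76.6%, the lowest of the subunits, was found in 261 of these genes (13.6%). The spans themselves were not long. The subunits had a median span of 1875.5 nt against 2060 nt for the 1922 genes, and CCT6A alone, with 2563 nt, lay above that median.

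Wide sites made up this cover. The widest site of a subunit mRNA measured from 280 nt (CCT2) to 806 nt (CCT5), with a median of 543 nt, against a median of 144 nt and an upper quartile of 217 nt for the widest site of the 1922 genes. On every subunit the widest site was also the one with the highest score. On CCT5 it ran from nt 572 to 1377, on CCT8 from nt 1323 to 1934 and on CCT6A from nt 864 to 1432. On CCT4 it ran from nt 1073 to 1620, on CCT7 from nt 491 to 1028, on TCP1 from nt 1077 to 1474, on CCT3 from nt 1067 to 1444 and on CCT2 from nt 1571 to 1850. The top sites thus lay in different parts of the mRNAs, near the end of the covered span on CCT2 and CCT8 and in its interior on the others.

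The authors' score of a site is on a log2 scale of unstated normalization. The highest PAR-CLIP score of a subunit mRNA was between 6.95 (CCT3) and 7.93 (CCT6A), and the lowest was between 1.42 (CCT7) and 4.40 (CCT3). Turned back to a linear scale, the scores of CCT4 and TCP1 moved in whole steps of the smallest site. The PAR-CLIP sites of CCT4 were 1, 5, 6, 6, 9, 18, 26 and 56 times the smallest of them, and on TCP1 the 10 sites were likewise whole multiples of the smallest within 1%. On the other subunits fewer of the sites were whole multiples of the smallest site: 7 of 12 on CCT2, 4 of 7 on CCT5, 5 of 10 on CCT6A, 3 of 8 on CCT7, 3 of 9 on CCT8 and 1 of 8 on CCT3, where the smallest site counts as 1 of them. These counts depend on the smallest site as the unit and on the tolerance, which was 1% of the multiple. Large multiples pass it more easily. On CCT7, 20.141 and 47.702 were counted as whole. The remaining multiples were 1.5, 2.5, 3.5 and 8.5 on CCT2, and 1.25, 1.75, 2.75, 4.5 and 6.5 on CCT8. A smaller unit would make these whole too, so CCT4 and TCP1 are not set apart by their steps. What a step stands for is not given, so steps were not read as fragments. Single sites were ranked by score within an mRNA. The score ranges above, the cut at the median score of a library and the ranks of score ratios below do set mRNAs side by side. They may depend on the unstated normalization.

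The PAR-CLIP signal was spread along the mRNAs without a common end. When the linear score of each site was spread evenly over its bases and the span divided into 3 equal parts, the first part held 19.7% to 37.6% of the sum, the middle part 22.2% to 46.0% and the last part 19.8% to 44.5%. CCT4 was highest in the last part (44.5%) and lowest in the first (19.7%). CCT6A showed another order, with 34.2% in the first, 46.0% in the middle and 19.8% in the last part. CCT3 was close to even, with 31.6%, 34.9% and 33.5%. The widest stretch without a PAR-CLIP site inside a span was 183 nt long, from nt 107 to 289 of CCT4, followed by nt 701 to 845 of CCT2 (145 nt).

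The 12 HITS-CLIP AEG1 sites were short and all fell inside PAR-CLIP sites. PAR-CLIP sites of the subunits were 38 to 806 nt wide, against 33 to 100 nt in HITS-CLIP replicate 1 and 32 to 53 nt in replicate 2. The overlap was complete for 12 of 12 sites. By library this was 10 of 10 in replicate 1 (exact binomial interval at 95%, 69.2% to 100%) and 2 of 2 in replicate 2 (15.8% to 100%). The intervals hold counting error alone. Sites of 1 mRNA share their source, so the intervals are too narrow. Over all genes, 90.2% of replicate 1 sites and 90.4% of replicate 2 sites overlapped a PAR-CLIP site by at least 1 nt. With 90.4% of the subunit spans covered at the median, a short site had little room to fall elsewhere.

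CCT5 gave 4 of the 12 sites, all from replicate 1. They lay at nt 313 to 372 (score 2.61), nt 927 to 1000 (2.03), nt 1025 to 1070 (3.03) and nt 1737 to 1834 (4.03). The middle pair fell inside the highest PAR-CLIP site of CCT5 (score 7.54), and the last, although the highest in HITS-CLIP, fell inside the PAR-CLIP site that ranked 3 of 7 (score 6.03). The order of scores within CCT5 therefore differed between the methods.

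CCT6A gave 3 sites in replicate 1, at nt 234 to 304 (score 2.88), nt 1125 to 1224 (3.47) and nt 1727 to 1759 (1.88), and 1 in replicate 2, at nt 783 to 814 (3.80). The replicate 2 site was 310 nt from the nearest replicate 1 site. CCT3 gave 1 site in each replicate, at nt 707 to 750 (score 4.12) in replicate 1 and at nt 1543 to 1595 (2.98) in replicate 2, with 792 nt between them. The remaining sites were both from replicate 1, at nt 796 to 854 of CCT4 (3.01) and nt 1582 to 1621 of CCT7 (1.50).

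No HITS-CLIP site on a chaperonin mRNA was found in the other replicate. Of the replicate 1 sites 0 of 10 overlapped a replicate 2 site (exact binomial interval at 95%, 0 to 30.8%), against 63.2% of all replicate 1 sites. The sites of CCT4, CCT5 and CCT7 could not overlap, since these mRNAs had no replicate 2 site. Position could be compared only for the replicate 1 sites of CCT3 (1 site) and CCT6A (3 sites). Of the replicate 2 sites 0 of 2 overlapped a replicate 1 site (0 to 84.2%), against 71.3% of all replicate 2 sites. Sites of 1 mRNA share their source, so these intervals are too narrow for independent sites. Among the 434 genes that, like CCT3, had exactly 1 site in each replicate, the sites overlapped in 353 (81.3%). The subunits counted as present in both replicates were thus present as mRNAs and not by position.

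CCT5 was unusual in missing replicate 2. Of the 483 protein-coding genes with 4 or more sites in replicate 1, 480 (99.4%) had a site in replicate 2. The cut of 4 was the number of CCT5 itself, so the group also holds genes with many more sites, such as APOB with 98. The share among genes with exactly 4 sites was not taken. The exceptions, named after their values were seen, were CCT5, the Golgi mannosidase MAN2A1 with 9 and 0 sites, and the monocarboxylate transporter SLC16A7 with 4 and 0. For CCT4 and CCT7, with 1 site in replicate 1, absence from replicate 2 was common: 52.4% of the 1002 genes with 1 replicate 1 site had a replicate 2 site. Of all genes with a site in either replicate, 58.9% had one in both, against 2 of 5 subunits.

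The summed scores of the 2 methods were compared on the same mRNA for the 5 subunits with HITS-CLIP sites. The linear scores of an mRNA were summed in each library, and the PAR-CLIP AEG1 sum divided by the HITS-CLIP AEG1 sum, so that any constant of the transcript cancels. The ratio still holds the unequal size of the libraries, and is read against the other genes. Sites were called separately in each library, so a sum also moves with the covered length. Against replicate 1, the log2 ratio was 6.78 for CCT7, 5.99 for CCT4, 5.16 for CCT6A, 4.84 for CCT3 and 3.38 for CCT5, where the median of 1722 genes with sites in both libraries was 2.66 and the upper quartile 3.97. CCT5 alone of these 5 lay within the quartiles. CCT7 was above 98.6% of the genes, CCT4 above 96.2%, CCT6A above 90.6%, CCT3 above 87.2% and CCT5 above 64.4%.

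The ratio was then split into covered length and mean score per covered nt. The covered length was 1724 nt in PAR-CLIP against 44 nt in HITS-CLIP replicate 1 on CCT3, 1524 against 59 nt on CCT4, 1872 against 278 nt on CCT5, 2133 against 204 nt on CCT6A and 1454 against 40 nt on CCT7. As a log2 ratio this was 5.29 for CCT3, 4.69 for CCT4, 2.75 for CCT5, 3.39 for CCT6A and 5.18 for CCT7, where the median gene had 3.13. The log2 ratio of the mean linear score per covered nt was -0.45 for CCT3, 1.30 for CCT4, 0.62 for CCT5, 1.78 for CCT6A and 1.60 for CCT7, with a median of -0.52. CCT5 thus lay below the median gene in covered length, and CCT3 lay near it in mean score, above 53.3% of genes. By number of sites there was no such order, with 1.20 subunit sites per 1000 sites in PAR-CLIP against 1.57 in HITS-CLIP replicate 1 and 0.354 in replicate 2.

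Against replicate 2, the log2 ratio was 5.98 for CCT3 and 5.83 for CCT6A, where the median of 1572 genes was 2.67 and the upper quartile 3.85. CCT3 was above 96.2% of these genes and CCT6A above 95.5%. For TCP1, CCT2 and CCT8 no ratio could be formed, because they had no HITS-CLIP site. In replicate 2 the covered length was 53 nt on CCT3 and 32 nt on CCT6A. The log2 ratio of mean score per covered nt was 0.95 for CCT3 and -0.23 for CCT6A, where the median gene had -0.58. The summed ratio was higher in genes with fewer HITS-CLIP sites. Among the 875 genes with 1 site in replicate 1 the median was 3.41, and CCT7 was above 97.3% of them, CCT4 above 93.0% and CCT3 above 77.1%. Among the 130 genes with 3 sites the median was 2.41 and CCT6A was above 96.9%, and among the 94 genes with 4 sites CCT5 was above 76.6%. Genes are not independent replicates, and these ranks describe the libraries without a test.

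**Figure D3:**
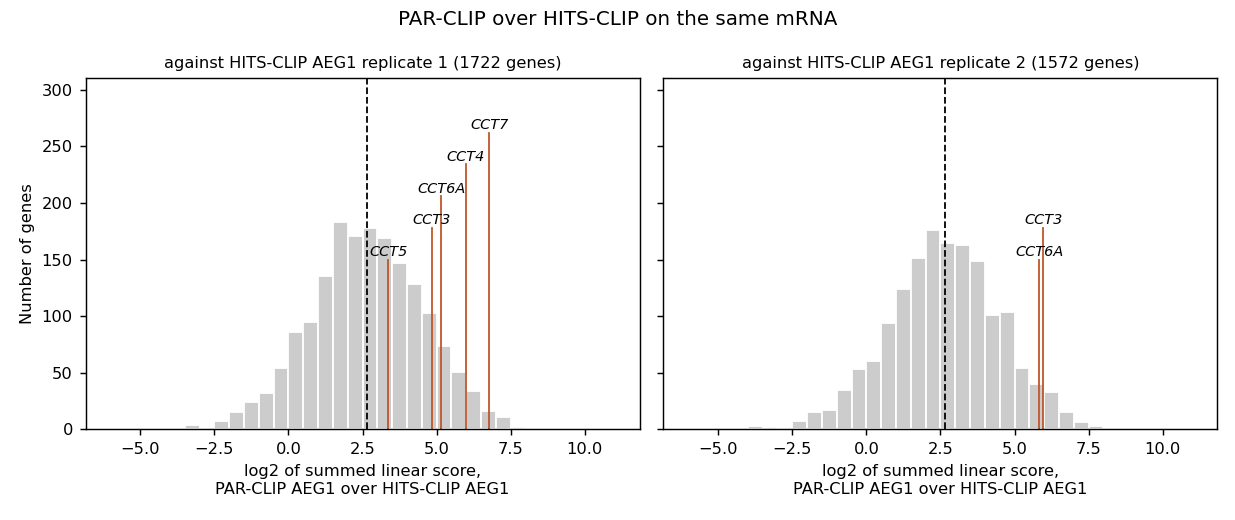
Number of genes (vertical axis) by the log2 ratio of summed linear score, PAR-CLIP AEG1 over HITS-CLIP AEG1 on the same mRNA (horizontal axis), with replicate 1 in the left panel and replicate 2 in the right. Grey bars are all genes with sites in both libraries, the dashed line their median (2.66 and 2.67), and the vertical lines the chaperonin subunits, whose heights carry no value; all lie to the right of the median.

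Genes near to the median profile of the subunits were AIFM1, a mitochondrial flavoprotein linked to cell death, TEX2, a membrane protein of the ER, FEN1, a flap endonuclease of DNA replication, and ACTR3, a subunit of the actin-branching Arp2/3 complex. Nearness was the Euclidean distance over 6 libraries between log2 of covered nt plus 1 and its median over the 8 subunits, and ran from 0.078 for AIFM1 to 0.146 for ACTR3. The median profile, with 42 nt in HITS-CLIP replicate 1 and 0 nt in replicate 2, resembled CCT4 and CCT7 more than the other subunits. TCP1, CCT2 and CCT8 had no HITS-CLIP cover, CCT3 and CCT6A had cover in replicate 2, and CCT5 had 278 nt in replicate 1. AIFM1 had 1592 nt covered in PAR-CLIP AEG1, and 43 and 0 nt in the HITS-CLIP AEG1 replicates. TEX2 had 1753 nt, and 45 and 0 nt. Each of these 4 genes had 1 site in HITS-CLIP replicate 1 and none in replicate 2 or in the controls, and 12 to 20 PAR-CLIP sites.

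Of the related chaperonins, 1 had more HITS-CLIP sites than the cytosolic subunits, a difference that was not tested. HSPD1, which forms the chaperonin of mitochondria, had 6 and 5 HITS-CLIP AEG1 sites, more than any cytosolic subunit in either replicate. These sites covered 323 and 255 nt. HSPD1 had 4 PAR-CLIP AEG1 sites, which covered 2132 nt, close to the highest of the subunits (CCT6A, 2133 nt). Its co-chaperonin HSPE1 had 4 PAR-CLIP sites and 0 and 0 HITS-CLIP sites. The paralogs CCT6B and CCT8L2 had no site in any library. Of 3 chaperonin-like proteins of the BBSome assembly pathway, MKKS had 7 PAR-CLIP sites and no HITS-CLIP site, and BBS10 and BBS12 had none.

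None of the prefoldin subunits, cofactors and tubulin folding cofactors had sites in both HITS-CLIP AEG1 replicates, where the share of protein-coding genes was 6.57%. Of 6 prefoldin subunits, 5 had PAR-CLIP AEG1 sites, at most 3 sites each (PFDN5 and VBP1), and 0 of 6 had a HITS-CLIP AEG1 site. Of 5 cofactors, 4 had PAR-CLIP sites, with 4 each on TXNDC9 and PDCD5, and 0 of 5 had a HITS-CLIP site. Of 5 tubulin folding cofactors, which act after the chaperonin, 4 had PAR-CLIP sites, with 3 each on TBCA and TBCB, and 0 of 5 had sites in both HITS-CLIP replicates. TBCA had 0 and 1 HITS-CLIP sites.

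The proteins that the chaperonin folds were divided. Of 13 actin and tubulin genes, 12 had PAR-CLIP AEG1 sites and 5 had sites in both HITS-CLIP AEG1 replicates. ACTB, or beta-actin, had 2 PAR-CLIP sites and 11 and 11 HITS-CLIP sites, and ACTG1, or gamma-actin, 6 PAR-CLIP sites and 11 and 10 HITS-CLIP sites. The PAR-CLIP sites of ACTB covered 1775 nt, and its HITS-CLIP sites 842 and 803 nt. TUBB, a beta-tubulin, had 6 PAR-CLIP sites and 7 and 7 HITS-CLIP sites. TUBA1A, an alpha-tubulin, had 8 PAR-CLIP sites and 3 and 0 HITS-CLIP sites, and TUBG1, the gamma-tubulin of the centrosome, 10 PAR-CLIP sites and none in HITS-CLIP. The PAR-CLIP control held 2 sites each on ACTB and ACTG1 and 1 on TUBB, unlike the chaperonin subunits, which had none. Actin and tubulin genes are close in sequence, so fragments may belong to another copy.

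Of 10 other proteins that the chaperonin folds or binds, 10 had PAR-CLIP sites and 1 had sites in both HITS-CLIP replicates. That gene was GNB1, a G protein beta subunit, with 16 PAR-CLIP sites and 2 and 1 HITS-CLIP sites. PPP2R1A, the scaffold of protein phosphatase 2A, had 15 PAR-CLIP sites and 1 and 0 HITS-CLIP sites, and HDAC3, a histone deacetylase, 5 PAR-CLIP sites and 0 and 1 HITS-CLIP sites. STAT3, a cytokine-activated transcription factor, had 21 PAR-CLIP sites and no HITS-CLIP site.

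**Figure D4:**
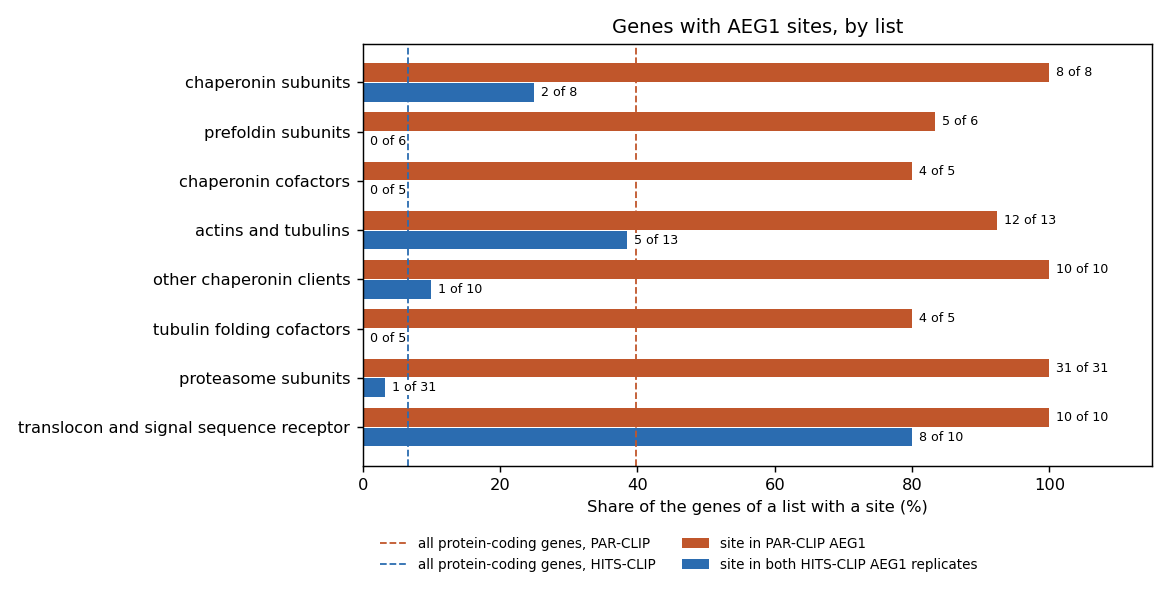
Share of the genes of each list with a PAR-CLIP AEG1 site (upper bar) and with a site in both HITS-CLIP AEG1 replicates (lower bar), in percent, for lists of at least 5 genes; the dashed lines give all protein-coding genes (39.8% and 6.57%). PAR-CLIP bars reach 80% or more in every list, while HITS-CLIP bars run from 0 of 6 prefoldin subunits to 8 of 10 translocon genes, with 2 of 8 chaperonin subunits between them.

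The chaperonin was set beside another cytosolic complex and a complex of the ER. All 31 proteasome subunits, of the protease complex of the cytosol and nucleus, had PAR-CLIP AEG1 sites and 1 of 31 had sites in both HITS-CLIP AEG1 replicates, against 8 of 8 and 2 of 8 chaperonin subunits. The exception was PSMA2, with 4 PAR-CLIP sites and 1 and 1 HITS-CLIP sites. PSMB4 had 2 PAR-CLIP sites and 2 and 0 HITS-CLIP sites, and PSMA7 had 7 PAR-CLIP sites and 0 and 1 HITS-CLIP sites. PSMD1 and PSMD11, with 19 and 15 PAR-CLIP sites, had no HITS-CLIP site.

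Of 10 genes of the translocon and the signal sequence receptor, which carry nascent proteins through the ER membrane, 10 had PAR-CLIP AEG1 sites and 8 had sites in both HITS-CLIP AEG1 replicates. SEC61A1, the channel, had 10 PAR-CLIP sites (3394 nt) and 15 and 17 HITS-CLIP sites (989 and 935 nt). TRAM1 had 7 PAR-CLIP sites and 8 HITS-CLIP sites in each replicate, SSR1 33 and 7 in each, and SEC63 18 and 4 in each. By number of PAR-CLIP sites the lists were alike, with medians of 8.5 for the chaperonin, 8 for the proteasome and 8.5 for the translocon. The number of sites does not give the covered length, and by width the lists were not alike. The widest site had a median of 543 nt in the chaperonin, 270 nt in the proteasome and 327 nt in the translocon. The differences between the lists were not tested.

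The covered share of the PAR-CLIP span was high in some other lists too. It had a median of 90.4% in the 8 chaperonin subunits, against 98.9% in 4 tubulin folding cofactors, 98.1% in the 2 mitochondrial chaperonin genes, 89.9% in 12 actins and tubulins, 78.9% in the 31 proteasome subunits, 75.1% in the 10 translocon genes and 44.0% in all 8009 genes with a PAR-CLIP site. The median was 76.0% in 4 chaperonin cofactors, 64.3% in 5 prefoldin subunits and 60.7% in 10 other chaperonin clients, and MKKS stood at 24.9%. A gene with 1 PAR-CLIP site has a share of 100% by definition. This held for TBCD and TBCE among the 4 tubulin folding cofactors, so the median of that list says little. It also held for PDCL3 among the chaperonin cofactors and TUBB6 among the actins and tubulins. The 8009 genes include such genes too. The widest site had a median of 543 nt in the chaperonin, 107 nt in the tubulin folding cofactors, 755 nt in the mitochondrial chaperonin, 218.5 nt in the actins and tubulins, 270 nt in the proteasome and 327 nt in the translocon. The log2 ratio of PAR-CLIP over the mean of the HITS-CLIP replicates, for genes with sites in all 3 AEG1 libraries, was 5.30 for CCT3 and 5.46 for CCT6A, against 6.26 for PSMA2, 3.37 for HSPD1 and a range from -0.07 to 3.24 for the 8 translocon genes. The median over 1244 such genes was 2.44. On this measure, both chaperonin subunits lay above each of the 8 translocon genes and below PSMA2, whose HITS-CLIP sites were 22 and 24 nt wide. GNB1 also lay above both subunits, at 5.73, and 5 actins and tubulins ran from 1.48 to 3.89.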

How the data were processed

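Per library, the authors deposited 1 list of called sites, each with its RefSeq mRNA, gene symbol, position and score. The submitters' processing notes name Bowtie and no version. The reference, the site caller, its threshold and the use of the controls were not stated. The values of the deposited score fit a log2 scale. Reads were 50 nt long, per the labels' protocols. Starts were taken as 0-based, since in PAR-CLIP AEG1 the start of 1039 sites equals the end of another and none lies 1 nt below an end, and were printed 1-based. The 8 subunits were found by the symbol in the files. Background shares used symbols updated from a RefSeq table (GRCh38.p14), which held 20056 protein-coding genes. The accession gave a match for 8146 of 8204 transcripts, the symbol for 30 more and a synonym for 20, and 8 were left as in the file.

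Sites were compared by an overlap of at least 1 nt. Without read counts, no count model was fitted. Intervals of shares are exact Clopper-Pearson intervals at 95% and hold counting error alone. The 2 against 2 HITS-CLIP libraries were compared by an exact permutation test, two-sided. Calculations used Python 3.11.15, pandas 2.3.3, numpy 2.4.6 and scipy 1.17.1, and were tested on simulated sites. The subunits and the lists were chosen with earlier results of these data known. By rule, the text names all 8 subunits, up to 3 genes of each other list with most HITS-CLIP sites and the 2 with most PAR-CLIP sites, and the 5 genes nearest in profile, of which 1 is not reported here; other genes were named after their values were seen. Alternatives covered site width, score, sites per gene, stricter overlap, updated symbols, covered nt and single replicates. No sequence of a site is printed, as transcript sequences were not used here.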

Additional observations from a re-analysis of the deposited data

How the results depend on the processing

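The count of subunits with sites in both HITS-CLIP AEG1 replicates, 2, was 0 among sites above the median score of their library and 0 when at least 2 sites per gene and library were required; with a single replicate it ranged from 2 to 5. It was 2 with sites over 25 nt and with updated symbols. The count with PAR-CLIP AEG1 sites was 8 under all 4 alternatives run. As covered sequence, the PAR-CLIP AEG1 minus control difference was 13781 nt. The HITS-CLIP difference was 6 sites with sites over 25 nt, and ranged from 2 to 10 without a replicate. With the replicate number as a block it was 6 (exact sign-flip test, p = 0.5, the smallest 2 pairs allow); the numbers do not show a pairing (r = 0.03 over 94 genes between the replicate differences of the AEG1 and control libraries). The share of HITS-CLIP sites inside PAR-CLIP sites was 100% in each replicate and 0% when the overlap had to fill 50% of both sites, since the PAR-CLIP sites are wider. Read depth is unknown, so a site missing from HITS-CLIP may lie under its detection limit.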
